A study of Mus musculus with 12 samples.

Results

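The genes described here are 45 regulators of chromatin in 12 arrays of mouse mammary tumours, from the high-mobility-group (HMG) proteins and the DNA methyltransferases to the Polycomb, heterochromatin, deacetylase, remodelling and acetyltransferase families and 2 histone H2A variants. They were taken by gene symbol, and each gene with several probe sets was represented by the brightest on average. Of the 45, 40 had a probe set of their own among the 12393 genes named on the array. Hmgb1 and Hmgn2 had only probe sets shared with other genes, and Hmga1, Suv39h1 and Ep300 were not analysed here.

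All tumours came from female FVB mice with a c-myc transgene under the mouse mammary tumour virus (MMTV) promoter, which is active mainly in mammary epithelium. The 6 Hunk knockout arrays (KO1 to KO6) were of MMTV-c-myc/Hunk KO genotype, and the 6 wild-type arrays (WT1 to WT6) were of MMTV-c-myc/Hunk WT genotype. Hunk encodes a serine/threonine kinase of the SNF1 family, and in its knockout allele a pGKneo cassette stood in place of the putative promoter and exon 1. The allele was made in E14 embryonic stem cells with a 129/Sv genomic clone, so that DNA next to Hunk may differ between the groups together with the allele. Females of both genotypes had been mated a second time before tumours were monitored, and their ages are not given in the sources used here. The labels do not say whether the arrays of a group were of separate mice, so p-values measure the spread between these arrays, which may be in part technical.

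DNA in the nucleus is wrapped around histones, and how tightly it is packed bears on which genes can be read. HMGB proteins bend DNA and HMGN proteins bind nucleosomes and loosen their packing, whereas Polycomb complexes, DNA methyltransferases and heterochromatin proteins hold genes silent. Remodellers of the SWI/SNF and ISWI type slide or evict nucleosomes, and deacetylases and acetyltransferases take acetyl groups off histones or put them on. Many of these proteins are most abundant in dividing cells, in which the whole chromatin has to be copied, and so the level of Mki67, which encodes the division marker Ki-67, was set beside theirs.

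In the Hunk knockout, 3 of the genes were lower past the test's threshold, and they are those the account below turns on: Hmgb3, Hmgn1 and Ezh2. Their promoters are shown for reference, since factors that switch a gene on bind near its transcript starts. Each sequence is the 250 bases before a transcript start that RefSeq annotates on the mouse assembly GRCm38.p6, 5′ to 3′ along the gene's own strand, with positions counted back from that start and each copy of CCAAT, in either orientation, in capitals. For Hmgb3 and Hmgn1 the stretch lies wholly outside the annotated gene, whereas for Ezh2 240 of its 250 bases lie inside the gene's annotated span, which reaches farther upstream than the start used. CCAAT is the box bound by nuclear factor Y, which is known for its place in promoters of cell division genes.
Hmgb3, chrX:71555667-71555916, plus strand: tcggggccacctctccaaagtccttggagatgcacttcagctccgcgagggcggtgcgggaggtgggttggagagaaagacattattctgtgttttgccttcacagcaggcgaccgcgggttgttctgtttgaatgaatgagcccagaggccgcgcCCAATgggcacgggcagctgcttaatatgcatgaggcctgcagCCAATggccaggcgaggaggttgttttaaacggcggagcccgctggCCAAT
Hmgn1, chr16:96127726-96127975, minus strand: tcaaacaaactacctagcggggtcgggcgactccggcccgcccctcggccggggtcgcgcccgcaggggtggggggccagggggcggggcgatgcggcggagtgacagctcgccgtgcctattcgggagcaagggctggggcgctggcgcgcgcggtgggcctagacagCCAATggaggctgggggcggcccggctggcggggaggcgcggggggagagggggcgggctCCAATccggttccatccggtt
Ezh2, chr6:47595031-47595280, minus strand: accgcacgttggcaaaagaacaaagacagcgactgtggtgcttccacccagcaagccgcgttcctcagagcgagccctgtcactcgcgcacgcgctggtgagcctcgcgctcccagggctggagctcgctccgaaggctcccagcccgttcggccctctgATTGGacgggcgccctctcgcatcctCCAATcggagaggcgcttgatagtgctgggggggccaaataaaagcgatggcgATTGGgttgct

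The stretch before Hmgb3 held 3 copies of CCAAT, which began 94, 51 and 5 bases before the start. That of Hmgn1 held 2, which began 81 and 21 bases before it. That of Ezh2 held 1 in the forward orientation, 64 bases before the transcript start used, and 2 in the reverse orientation, written ATTGG, 90 and 11 bases before it, all 3 inside the gene's annotated span. At least 1 copy in either orientation stood in 33.8% of all 32851 promoters of the same length in the table and in 14 of the 44 promoters found for 36 of the genes (31.8%), so that the box is not more frequent in them. GGGCGG, searched on both strands as the core of the GC box that Sp1 binds, stood in 36 of the 44 promoters (81.8%), against 32.7% of all promoters, and was found 4 times before Hmgn1, 1 time before Hmgb3 and 0 times before Ezh2. The E-box CACGTG, which Myc binds, was in 5 of the 44 (11.4%), against 6.02% of all, and in none of the 3 shown, and the E2F box TTTGGCGC, also searched on both strands, was in 1 of the 44 (2.27%), against 0.417% of all, and likewise in none of the 3. G and C made up 58.8% of the bases before Hmgb3, 76.0% of those before Hmgn1 and 63.6% of those before Ezh2. The set of all promoters was not matched to the 44 in base content or expression, so these shares do not set the genes apart from promoters like theirs. A match to letters is a description of the sequence and not evidence of binding, and the arrays hold no measurement at promoters.

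Every level below is a log2 signal as the authors deposited it, made with GCRMA, a method that corrects Affymetrix probe intensities for background with the probes' base content, puts the arrays on 1 scale and sums up each probe set. A difference of 1 is a factor of 2 in signal. Levels are compared between arrays for 1 probe set at a time and never between genes, because probes differ in brightness. Differences and estimates are knockout minus wild type, n is 6 arrays in each group, and a gene was tested where its mean over the 12 arrays exceeded the median of all probe sets, 3.98. The test was limma's moderated linear model over the 6825 genes that passed, with Benjamini-Hochberg adjusted p under 0.05 as the threshold.

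Of the 40 genes with values, 33 passed this filter, and these 33 were above the array's background, the brightest Bacillus control probe set, on all 12 arrays. The other 7, Hmga2, Ezh1, Ring1, Cbx3, Hdac5, Hdac6 and Smarcd1, were too dim to be tested, and Ring1, Cbx3 and Hdac5 were not above background on any array. Hmga2, an AT-hook protein that shapes DNA, lay between 3.02 and 3.16 with a median of 3.08 in the knockout and between 2.96 and 3.99 with a median of 3.07 in the wild type. Smarcd1, a SWI/SNF subunit, lay between 3.33 and 3.43 with a median of 3.37 in the knockout and between 3.34 and 4.43 with a median of 3.57 in the wild type, and Hdac6, a deacetylase that acts mainly on tubulin, lay between 2.15 and 3.72 with a median of 2.91 in the knockout and between 2.65 and 3.30 with a median of 3.03 in the wild type. The probe sets of Ring1, Hdac5 and Cbx3 gave values near a floor on all arrays, at medians of 2.55, 2.54 and 0.73 in the knockout and 2.53, 2.45 and 0.73 in the wild type, so that nothing can be said of these genes. Hunk itself averaged 2.95 ± 0.17 in the knockout and 4.21 ± 1.05 in the wild type (SD, n = 6 each; exact permutation p = 0.0108), with the array WT6 at 2.99 inside the knockout's range of 2.60 to 3.06. Hunk was also below the filter, and was above background on 0 knockout and 4 wild-type arrays. In a limma fit with no filter its adjusted p was 0.181. The size of its difference is thus uncertain.

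Arrays differed in ways that may bear on all of these genes. Mki67 averaged 8.59 ± 0.42 in the knockout and 9.35 ± 0.45 in the wild type (SD, n = 6 each; two-sided exact permutation p = 0.0152). Its difference of -0.77 did not pass limma's threshold (limma adjusted p = 0.102). The permutation p-values in this paragraph are not adjusted for the number of quantities compared. The mean of 9 other genes of cell division, of 10 looked for, ranged from 7.14 to 8.43 in the knockout and from 7.91 to 8.59 in the wild type (exact permutation p = 0.0260). The beta-actin control probe sets, whose 3′ minus 5′ difference grows as RNA degrades, differed by 1.51 ± 0.15 in the knockout and 1.29 ± 0.05 in the wild type (exact permutation p = 0.0108). Means of marker lists of fibroblasts (6 of 6 genes; 6.57 to 7.45 in the knockout and 6.28 to 6.96 in the wild type) and adipocytes (3 of 5 genes; 3.61 to 6.54 in the knockout and 2.98 to 4.12 in the wild type) were higher in the knockout, at exact permutation p = 0.0195 and 0.0433. Lists of mammary epithelium (11 of 11 genes; 6.96 to 10.69 in the knockout and 7.05 to 8.93 in the wild type) and macrophages (7 of 7; 6.31 to 7.48 in the knockout and 6.97 to 7.32 in the wild type) gave exact permutation p of 0.221 and 0.0563. Lists of T and B lymphocytes (6 of 7; 3.01 to 3.15 in the knockout and 2.93 to 3.13 in the wild type) and endothelium (4 of 4; 2.86 to 3.11 in the knockout and 2.78 to 3.01 in the wild type) gave 0.281 and 0.329. Of the 11 epithelial genes, Krt8, Krt18, Epcam, Cdh1, Csn3 and Wap were above background on all 12 arrays, Krt19 and Krt14 on 11, Krt5 on 6, Csn2 on 5 and Lalba on 4. Among the marker genes tested, 2 passed limma's threshold and were singled out after their values were seen. The keratin Krt19 averaged 10.64 ± 1.45 in the knockout and 6.56 ± 2.20 in the wild type (difference 4.08, SE 0.97, limma adjusted p = 0.0424), and the mitotic activator Cdc20 averaged 9.24 ± 0.29 in the knockout and 10.06 ± 0.19 in the wild type (difference -0.82, SE 0.15, limma adjusted p = 0.0118). All endothelial genes but Tek and all lymphocyte genes but Cd3e were below background on all 12. So were Pdgfra and Dcn of the fibroblast list and Lep of the adipocyte list, while Adipoq was above background on KO2 alone (6.29). The adipocyte mean thus rests on Fabp4 (limma adjusted p = 0.222) and on KO2. No gene of the fibroblast or adipocyte list passed limma's threshold. The part of division, RNA quality and cell makeup in the changes below was not tested beyond the values given beside them, and in whole tumours fewer cells of a type and less RNA per cell cannot be told apart. KO4 and KO5 were the most alike pair of arrays, with an SD of their difference of 0.259 over all probe sets, against 0.412 for the next pair, WT3 and WT4, so results are also given with KO4 and KO5 averaged as 1 sample.

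Set against the wild type, the knockout had 3 of the 33 tested genes lower (9.09%) and 0 higher. Over all 6825 genes, limma called 1.68% lower and 1.66% higher. At an unadjusted p under 0.05, which gives no call, 8 of the 33 were lower (24.2%) and 0 were higher, against 10.5% lower and 8.97% higher over all genes. The 8 were Hmgb3, Hmgn1, Ezh2, Hmgb2, Dnmt1, Hdac2, Suz12 and Kat2a. Of the 33 estimates, 24 were negative (72.7%), against 49.2% of all genes, and their median was -0.17, against 0.01 for all genes. The groups did not overlap for 1 gene, Hmgb3, which was lower on every knockout array, and for 0 genes in the other direction. Over all genes, 1.44% were lower and 1.71% higher without overlap. With beta-actin as a covariate none of the 3 passed limma's threshold, at -0.92 for Hmgb3, -0.51 for Hmgn1 and -0.9996 for Ezh2 (adjusted p = 0.091, 0.0965 and 0.195). None passed with Mki67 as a covariate either, as given gene by gene below.

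The 33 genes differed in how much they varied between arrays of 1 group. The SD within groups had a median of 0.408 and was highest for Hmgn3 (1.44), Hells (1.01), Dnmt3b (0.92), Bmi1 (0.85), Cbx5 (0.73) and Kdm5b (0.68). Single arrays stood out across many of the genes: in the knockout KO4 was the highest array for 12 of the 33 and KO5 for 10, and in the wild type WT2 was highest for 15 and WT1 lowest for 12. The 3 genes that passed the test are not among the 6 that varied most.

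**Figure D1:**
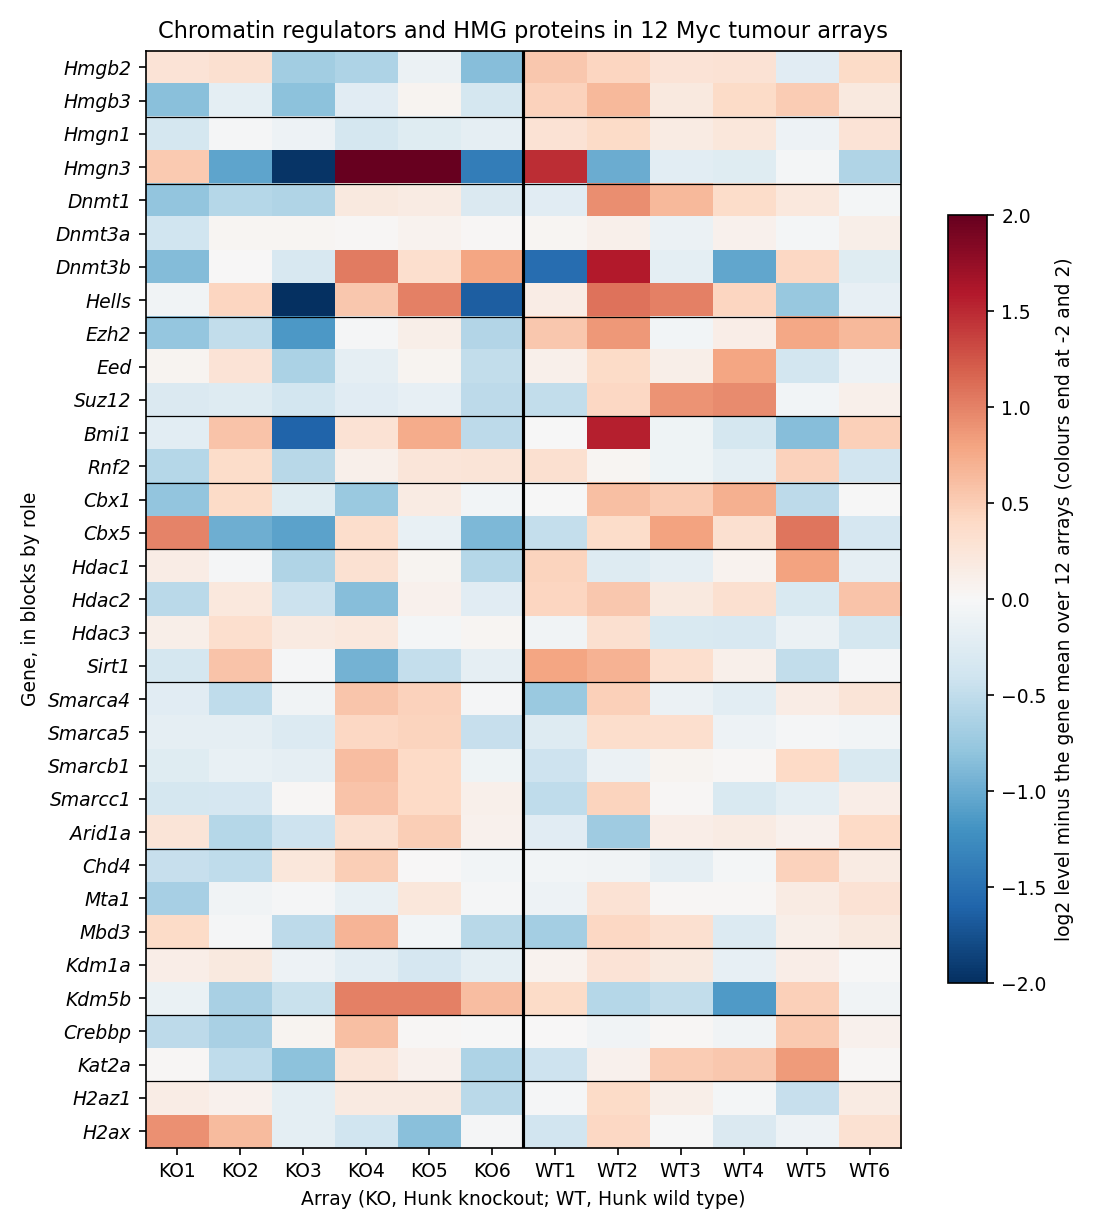
Level of each of the 33 tested genes (rows, in blocks by role) on each array (columns, 6 knockout arrays left of 6 wild-type arrays), as log2 signal minus the gene's own mean over the 12 arrays. The row of Hmgb3 is below its mean or close to it on every knockout array and above it on every wild-type array, while Hmgn3 stands out on KO4 and KO5, at 8.31 and 8.57.

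Among the DNA-bending HMGB proteins, both tested members had negative estimates and Hmgb3 was lower past the threshold. Hmgb3, known in the mouse for a role in blood progenitor cells, was at 7.30, 7.93, 7.32, 7.91, 8.18 and 7.79 on KO1 to KO6, against 8.59, 8.78, 8.32, 8.52, 8.64 and 8.32 on WT1 to WT6. The highest knockout array, KO5, lay below the lowest wild-type arrays, WT3 and WT6. The mean was 7.74 ± 0.36 in the knockout and 8.53 ± 0.18 in the wild type (SD, n = 6 each), a difference of -0.79 (SE 0.17, 95% interval -1.16 to -0.43, limma adjusted p = 0.0275), which is 1.73-fold higher signal in the wild type. With KO4 and KO5 averaged the adjusted p was 0.0321. It was 0.0524 with no filter on dim probe sets and 0.0505, 0.0638 and 0.0547 without KO6, WT4 or WT5 in turn, and with the Mki67 level as a covariate the difference was -1.02 (adjusted p = 0.0553).

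Hmgb2, the related HMGB protein most tied to dividing and stem cells, did not pass. It lay between 8.18 and 9.35 with a median of 8.67 in the knockout, against between 8.80 and 9.57 with a median of 9.37 in the wild type, a difference of -0.56 (SE 0.22, limma adjusted p = 0.19). The knockout arrays fell into 3 at 8.42 or below (KO3, KO4 and KO6) and 3 at 8.91 or above, so that the groups overlapped. A second Hmgb2 probe set gave -0.68.

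Of the nucleosome-binding HMGN proteins, Hmgn1 was lower and Hmgn3 did not pass. Hmgn1 was at 12.31, 12.64, 12.56, 12.31, 12.42 and 12.49 on KO1 to KO6, against 12.96, 13.05, 12.83, 12.90, 12.57 and 12.94 on WT1 to WT6. Only WT5 came down into the range of the knockout, where KO2 was higher. Hmgn1 averaged 12.45 ± 0.14 in the knockout and 12.87 ± 0.17 in the wild type (SD, n = 6 each), a difference of -0.42 (SE 0.09, 95% interval -0.62 to -0.21, limma adjusted p = 0.0345), or 1.34-fold higher signal in the wild type.

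The Hmgn1 value rests on a probe set of the _x_at kind, which can match related transcripts, and its 2 other bright probe sets gave smaller differences of -0.25 and -0.21. With the mean of the gene's probe sets the difference was -0.21 (adjusted p = 0.218), and with its probe set of highest SD -0.21 (adjusted p = 0.418). With quantile normalization the adjusted p was 0.0544, with KO4 and KO5 averaged it was 0.0685, and it passed 0.05 only without KO2, KO3 or WT5 when arrays were left out in turn (range 0.0164 to 0.0794). With the Mki67 level as a covariate the difference was -0.44 (adjusted p = 0.146). Hmgn1 lies on chromosome 16, as does Hunk, with 133 annotated genes between them, 54 of them protein coding, so that an effect of the knockout allele and one of stem cell DNA carried along with it cannot be told apart. Crebbp is also on chromosome 16, with 1318 annotated genes between it and Hunk.

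Hmgn3 varied most of the 33 genes, with an SD within groups of 1.44. It was at 6.72, 5.14, 4.23, 8.31, 8.57 and 4.80 on KO1 to KO6, against 7.66, 5.20, 5.98, 5.94, 6.15 and 5.58 on WT1 to WT6, a difference of 0.21 (SE 0.75, limma adjusted p = 0.89). KO4, KO5 and WT1 were high and KO3 was lowest, so that the spread within each group exceeded the difference between them.

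For DNA methylation, none of the 4 tested genes passed, and 3 of the 4 estimates were negative. Dnmt1, which copies methylation onto new DNA strands, was at 8.28, 8.50, 8.46, 9.26, 9.23 and 8.78 on KO1 to KO6, against 8.85, 9.997, 9.72, 9.43, 9.27 and 9.02 on WT1 to WT6. KO4 and KO5 lay among the wild-type arrays and the other 4 knockout arrays lay below all of them. The difference was -0.63 (SE 0.23, limma adjusted p = 0.159), and a second probe set gave -0.78.

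Hells, a remodelling helicase that DNA methylation needs in the mouse, lay between 5.25 and 8.25 with a median of 7.43 in the knockout, against between 6.48 and 8.33 with a median of 7.54 in the wild type (difference -0.58, SE 0.53, adjusted p = 0.552). KO3 and KO6 were far below all other arrays. The enzymes that set new methylation also overlapped between the groups. Dnmt3a had an estimate of -0.07 (SE 0.09) and was close to background, between 3.71 and 4.19 in the knockout and between 4.01 and 4.24 in the wild type. Dnmt3b was at between 4.52 and 6.42 with a median of 5.56 in the knockout, against between 3.86 and 6.97 with a median of 5.16 in the wild type (difference 0.33, SE 0.48).

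In Polycomb repressive complex 2, which methylates lysine 27 of histone H3, the catalytic subunit Ezh2 was lower and its partners Eed and Suz12 did not pass. Ezh2 was at 6.66, 6.94, 6.29, 7.41, 7.55 and 6.84 on KO1 to KO6, against 7.98, 8.31, 7.38, 7.56, 8.21 and 8.09 on WT1 to WT6. The wild-type arrays WT3 and WT4 were low, and WT3 lay below KO4 and KO5. Ezh2 averaged 6.95 ± 0.47 in the knockout and 7.92 ± 0.37 in the wild type (SD, n = 6 each), a difference of -0.97 (SE 0.23, 95% interval -1.48 to -0.47, limma adjusted p = 0.0438), or 1.96-fold higher signal in the wild type. With KO4 and KO5 averaged the adjusted p was 0.0434. It passed 0.05 only without KO4, KO5 or WT3 when arrays were left out in turn (adjusted p from 0.0381 to 0.0863), and with no filter on dim probe sets it was 0.0803. The difference was -1.27 with the Mki67 level as a covariate (adjusted p = 0.0751), -0.86 with the mean of the epithelial markers as a covariate (adjusted p = 0.0774) and -0.66 with array weights (adjusted p = 0.114). The epithelial mean follows milk genes in large part, as given above.

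Suz12, the subunit that holds the complex together, was at 8.42, 8.46, 8.35, 8.50, 8.55 and 8.19 on KO1 to KO6, against 8.22, 9.12, 9.62, 9.66, 8.66 and 8.82 on WT1 to WT6. All knockout arrays lay close together while the wild type spread widely, with WT1 near the bottom of the knockout's range. Its difference was -0.61 (SE 0.23, limma adjusted p = 0.16), and 5 further probe sets, 1 of them below the filter, gave from -0.40 to 0.05. Eed, which reads the mark that the complex sets, lay between 7.16 and 8.06 with a median of 7.72 in the knockout and between 7.42 and 8.58 with a median of 7.90 in the wild type (difference -0.31, adjusted p = 0.429). Ezh1, the second catalytic subunit, was below the filter, at between 3.43 and 3.61 with a median of 3.52 in the knockout and between 3.48 and 4.24 with a median of 3.52 in the wild type.

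**Figure D2:**
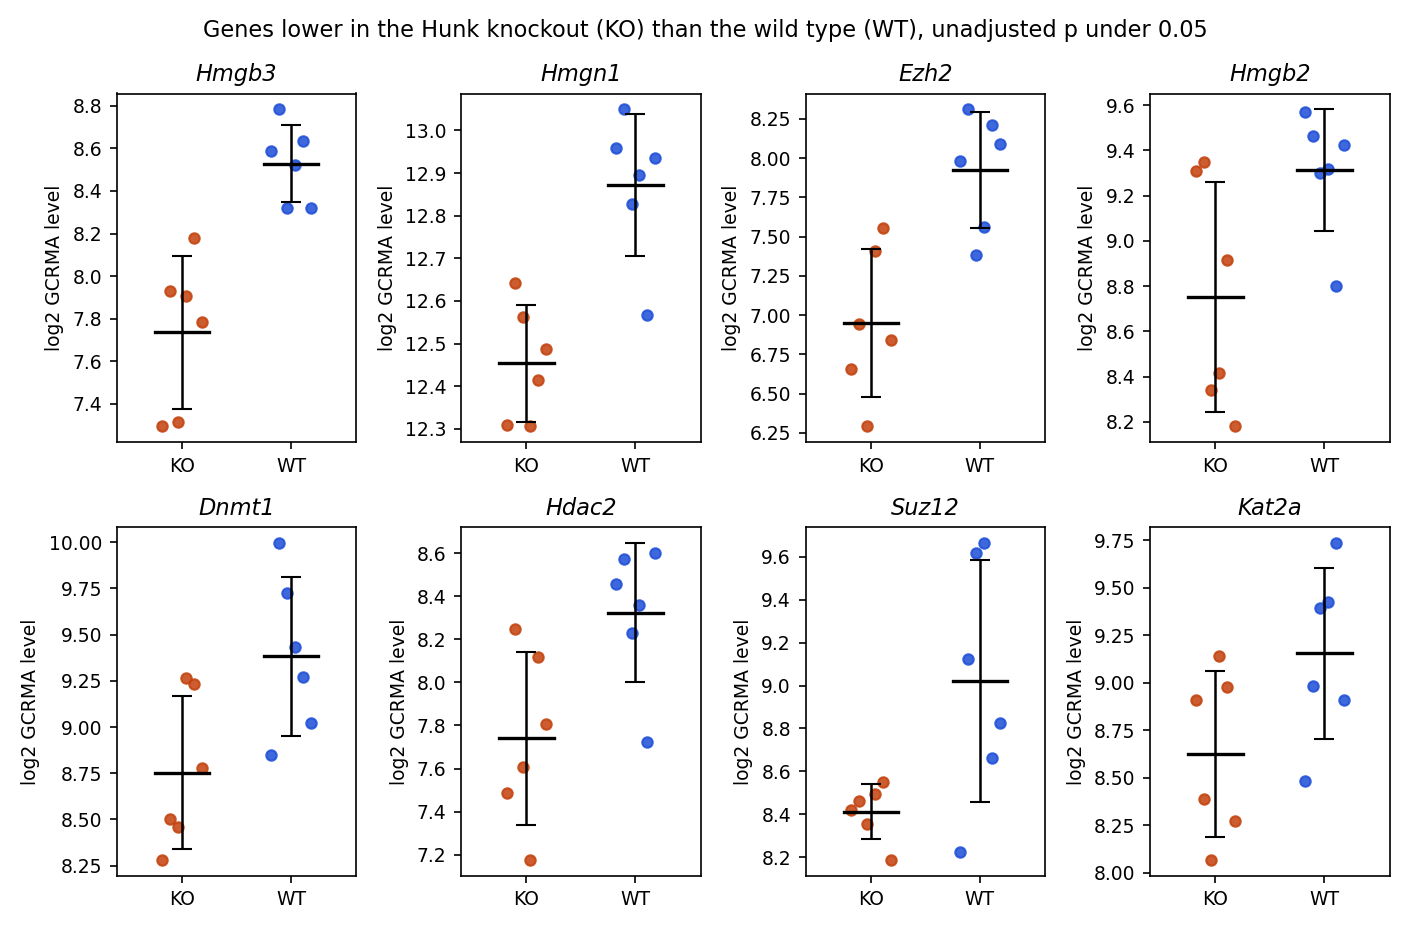
Log2 signal of the 8 genes with an unadjusted p under 0.05, with a point for each array, the 6 knockout arrays left of the 6 wild-type arrays, a thick line at the mean and bars of 1 SD. Hmgb3 is the panel in which the groups do not overlap. Hmgb3, Hmgn1 and Ezh2 passed the adjusted threshold and the other 5 did not.

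Polycomb repressive complex 1, which ubiquitinates histone H2A, was represented by Bmi1 and its catalytic partner Rnf2, and neither passed. Bmi1 was at 7.11, 7.89, 5.72, 7.61, 8.07 and 6.79 on KO1 to KO6, against 7.32, 8.87, 7.24, 6.98, 6.47 and 7.79 on WT1 to WT6. KO3 was the lowest array and WT2 the highest, and the difference of -0.25 (SE 0.45, limma adjusted p = 0.778) was within the spread of either group. For Rnf2 the estimate was -0.06 (SE 0.21). Further probe sets of both genes, above the filter, gave estimates between 0.08 and 0.09, of the opposite sign.

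The heterochromatin proteins Cbx1 and Cbx5, HP1 proteins that bind methylated lysine 9 of histone H3, had negative estimates that did not pass. Cbx5 was at 8.97, 7.00, 6.90, 8.32, 7.83 and 7.07 on KO1 to KO6, against 7.50, 8.33, 8.78, 8.29, 9.04 and 7.63 on WT1 to WT6, a difference of -0.58 (SE 0.39, limma adjusted p = 0.417). KO1 was high and WT5 was higher still, and KO2, KO3 and KO6 were the 3 lowest of the 12. Cbx1 lay between 8.57 and 9.73 with a median of 9.21 in the knockout and between 8.83 and 10.07 with a median of 9.60 in the wild type (difference -0.43, SE 0.26, adjusted p = 0.366). Further, dimmer probe sets above the filter gave -0.23, 0.03 and 0.09 for Cbx1, so of both signs, and -0.71 for Cbx5.

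Of the histone deacetylases, none of the 4 tested passed, and 3 of the 4 estimates were negative. Hdac2 was at 7.49, 8.25, 7.61, 7.18, 8.12 and 7.80 on KO1 to KO6, against 8.46, 8.57, 8.23, 8.36, 7.72 and 8.60 on WT1 to WT6. KO2 and KO5 were the high knockout arrays and WT5 the low wild-type one, which lay below 3 knockout arrays. Its difference was -0.58 (SE 0.21, limma adjusted p = 0.145). Hdac1, which often shares complexes with Hdac2, had an estimate of -0.23 (SE 0.22), and Sirt1, a deacetylase that uses NAD, of -0.47 (SE 0.26). Hdac3, the deacetylase of the nuclear receptor corepressors, was between 8.10 and 8.47 with a median of 8.28 in the knockout, against between 7.78 and 8.45 with a median of 7.91 in the wild type, a positive estimate of 0.28 (SE 0.13, limma adjusted p = 0.261). In the wild type only WT2 reached the knockout's median of Hdac3.

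The 5 tested remodellers of the SWI/SNF and ISWI families did not pass, with estimates from -0.08 (Smarca5, the ISWI ATPase) to 0.13 (Smarcc1, a SWI/SNF core subunit). Smarcc1 was at 8.34, 8.35, 8.71, 9.27, 9.09 and 8.79 on KO1 to KO6, against 8.19, 9.14, 8.71, 8.38, 8.49 and 8.83 on WT1 to WT6 (difference 0.13, SE 0.20, limma adjusted p = 0.731). Within the knockout KO4 and KO5 were its highest arrays, as they were for Smarca4, the ATPase Brg1, for Smarca5 and for the core subunit Smarcb1. Other, dimmer probe sets gave the opposite sign, at -0.52 for Smarcc1 and -0.12 for Smarca4. Smarca4 had an estimate of 0.06 (95% interval -0.43 to 0.56), Smarcb1 of 0.12 (-0.29 to 0.52) and the DNA-binding subunit Arid1a of 0.05 (-0.44 to 0.55), and differences within these intervals could not be told from 0 with 6 arrays a group.

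In the NuRD complex, which joins a remodeller to deacetylases, Mta1, Chd4 and Mbd3 had small negative estimates. Mta1 was at 7.26, 7.84, 7.89, 7.76, 8.15 and 7.90 on KO1 to KO6, against 7.81, 8.21, 7.94, 7.94, 8.07 and 8.21 on WT1 to WT6 (difference -0.23, SE 0.15, limma adjusted p = 0.389). KO1 was the low array, and without it the groups covered much the same levels. Chd4, the ATPase of the complex, had an estimate of -0.10 (SE 0.18), and Mbd3, a core subunit, of -0.03 (SE 0.25). Further Chd4 probe sets above the filter gave -0.46 and 0.02, of both signs.

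The demethylase Kdm5b, which removes methyl groups from lysine 4 of histone H3, had the largest positive estimate of the 33 without passing. It was at 7.01, 6.49, 6.70, 8.15, 8.14 and 7.76 on KO1 to KO6, against 7.52, 6.57, 6.65, 6.01, 7.62 and 7.07 on WT1 to WT6. KO4, KO5 and KO6 were its 3 highest arrays and WT4 its lowest. The difference was 0.47 (SE 0.36, limma adjusted p = 0.479), and 0.31 with KO4 and KO5 averaged. Kdm1a, which acts on the same lysine through another chemistry, had an estimate of -0.17 (SE 0.12).

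The acetyltransferases Kat2a and Crebbp had negative estimates that did not pass. Kat2a, the enzyme GCN5 of the SAGA complex, was at 8.91, 8.39, 8.07, 9.14, 8.98 and 8.27 on KO1 to KO6, against 8.48, 8.98, 9.39, 9.43, 9.74 and 8.91 on WT1 to WT6. KO2, KO3 and KO6 lay below all wild-type arrays while WT3, WT4 and WT5 lay above all of the knockout. The difference was -0.53 (SE 0.24, limma adjusted p = 0.254), and a second probe set gave -0.54. Crebbp, a coactivator and acetyltransferase, had an estimate of -0.17 (SE 0.19).

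The 2 histone variants did not pass, and their estimates were within the spread of either group. H2az1, named H2afz in older annotation, was at 10.75, 10.70, 10.41, 10.78, 10.78 and 10.06 on KO1 to KO6, against 10.58, 10.99, 10.72, 10.57, 10.14 and 10.76 on WT1 to WT6 (difference -0.05, 95% interval -0.40 to 0.30). KO6 and WT5 were the low arrays of their groups. H2ax, the variant that is phosphorylated at DNA breaks, had an estimate of 0.02 (95% interval -0.58 to 0.62).

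**Figure D3:**
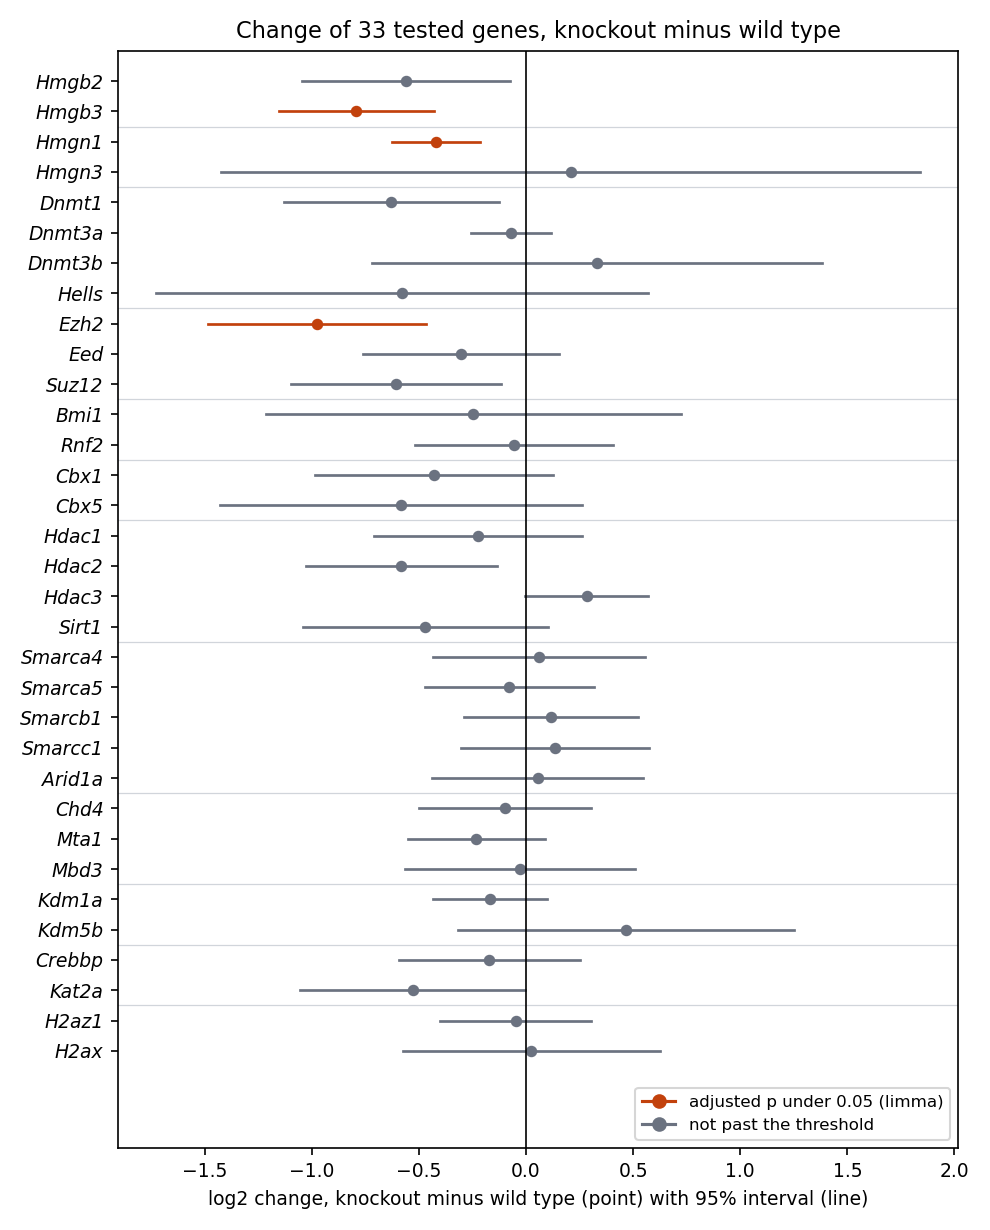
Log2 change of each of the 33 tested genes (down the page, in blocks by role), knockout minus wild type, with its 95% interval. Hmgb3, Hmgn1 and Ezh2, in orange, passed limma's adjusted threshold, and 24 of the 33 points lie left of 0.

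A second list held 184 other chromatin genes, of which 138 were measured and 109 tested. Of these, 3 were lower (2.75%) and 1 was higher, near the 1.68% and 1.66% of all genes. At an unadjusted limma p under 0.05, 30 of the 109 were lower and 5 higher, against 10.5% and 8.97% of all genes. The larger share of lower genes at that cutoff, 24.2% among the 33, was thus not particular to them. Ruvbl1, an ATPase of the INO80 and TIP60 complexes, averaged 8.03 ± 0.33 in the knockout and 9.07 ± 0.30 in the wild type (difference -1.04, SE 0.18, limma adjusted p = 0.0113), with no overlap. Ncapd2, a subunit of condensin, averaged 6.79 ± 0.57 in the knockout and 8.08 ± 0.26 in the wild type (difference -1.28, adjusted p = 0.0176). Lbr, the lamin B receptor that holds heterochromatin at the nuclear envelope, averaged 8.27 ± 0.71 in the knockout and 9.54 ± 0.32 in the wild type (difference -1.27, adjusted p = 0.0395). Kat2b, the paralogue of Kat2a, was the gene that was higher, at 8.35 ± 0.80 in the knockout and 6.87 ± 0.51 in the wild type (difference 1.48, adjusted p = 0.045). Of the 109, 82 estimates were negative and their median was -0.20, close to the -0.17 of the 33.

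The relation of the 33 genes to division was examined through their slope on the Mki67 level with group as the other term, that is, within the knockout and within the wild type. Mki67 ranged from 8.12 to 9.36 in the knockout, where KO1 was highest and the others reached 8.63, and from 8.84 to 10.03 in the wild type. In this fit limma called 0 of the 33 genes and 0% of the 6824 genes tested. At an unadjusted p under 0.05, 1 of the 33 had a positive slope and 1 a negative one, against 3.21% and 3.5% of all genes. The slope was positive for 14 of the 33 (42.4%), against 47.2% of all genes, with a median of -0.02, against -0.01. This balance depended on the division measure. With the mean of the 9 division genes in place of Mki67, 12 of the 33 slopes were negative. Their median was then 0.08, against 0.01 for all genes. At an unadjusted limma p under 0.05, 6 of the 33 were positive and 1 negative, against 557 and 225 of the 6824 genes. None passed the adjusted threshold.

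Suz12 was the gene with the positive slope, at 0.59 log2 units per unit of Mki67 (SE 0.24, limma adjusted p = 0.716). Rnf2 was that with the negative slope, at -0.61 (SE 0.21, limma adjusted p = 0.712). With the mean of each gene's probe sets, 0 of 32 chromatin genes tested had a slope of either sign at an unadjusted limma p under 0.05. Without WT1 or without WT4, 0 had a positive one. The 3 genes lower in the knockout had slopes of -0.29 (SE 0.20) for Hmgb3, -0.03 (SE 0.12) for Hmgn1 and -0.39 (SE 0.28) for Ezh2, none past the threshold. None of these 3 slopes was positive.

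The slopes of the groups were also compared with each other, as knockout slope minus wild-type slope. In that test limma called 0 of the 33 and 0% of the 6824 genes, and at an unadjusted p under 0.05 there were 3 of the 33, against 6.59% of all genes. The differences were -1.12 for Suz12 (SE 0.36, limma adjusted p = 0.691), -1.52 for Cbx1 (SE 0.51, adjusted p = 0.691) and -0.42 for Dnmt3a (SE 0.17, adjusted p = 0.714). In all 3 the slope was lower in the knockout.

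**Figure D4:**
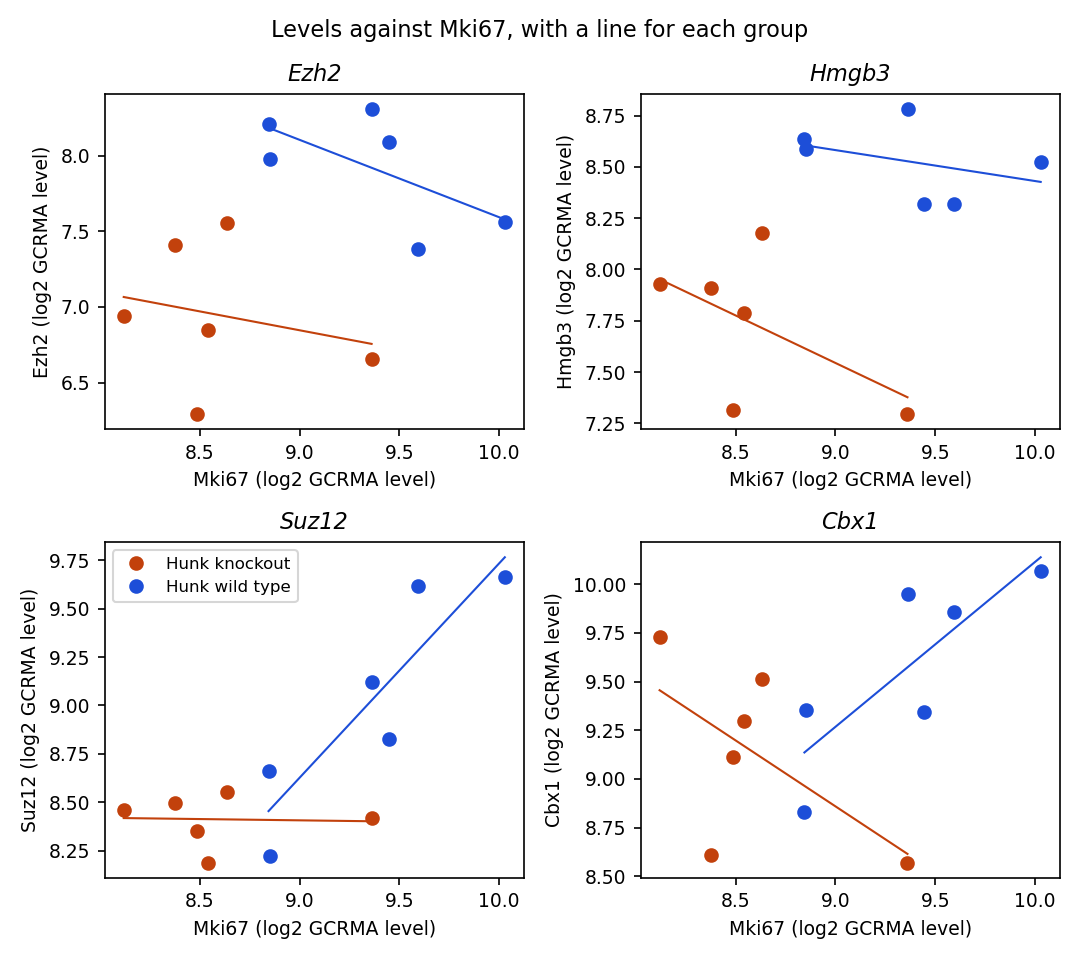
Log2 signal of Ezh2, Hmgb3, Suz12 and Cbx1 (vertical axes) against that of Mki67 (horizontal axes) on each array, with the 6 knockout arrays in orange, the 6 wild-type arrays in blue and a least-squares line for each group. Ezh2 and Hmgb3 are lower in the knockout with lines that slope down in both groups, while the lines of Suz12 and Cbx1 slope up in the wild type. The knockout lines lean on KO1, which lies far to the right of the other knockout arrays, at 9.36 in Mki67.

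Over all 12 arrays together, 0 of the 33 genes and 0% of the 6824 correlated with Mki67 past the adjusted threshold by Pearson's r, and 0% by Spearman's rho (permutation tests with 100000 resamples, two-sided). Pearson's r was positive for 22 of the 33 (66.7%), against 47.1% of all genes, with a median of 0.18, against -0.03. Mki67 averaged lower in the knockout, without passing limma's threshold, and most of these genes had negative estimates. Hence r over the 12 arrays mixes the difference between groups with the relation within them. Within the knockout the median r was -0.14, near the -0.11 of all genes. Within the wild type it was 0.13, against 0.02 for all genes. For 18 of the 33 the sign of r differed between the groups, as it did for 3543 of the 6824 genes. At an unadjusted p under 0.05 there were 2 positive and 1 negative, against 4.24% and 4.4% of all genes.

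Those 3 were Suz12, Eed and Hdac3. For Suz12, r was 0.79 and rho 0.68 over 12 arrays (permutation p = 0.00138 and 0.0182, adjusted 0.327 and 0.401). Without WT4 and WT3, the arrays farthest from the median of Mki67, r was 0.56, and it was -0.04 within the knockout and 0.89 within the wild type (exact permutation p = 0.932 and 0.025, unadjusted). The test of the difference between these slopes, given above, did not pass.

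Eed, the partner of Suz12, had r = 0.58 and rho = 0.52 (permutation p = 0.0478 and 0.088, adjusted 0.573 and 0.474), with 0.28 without WT4 and WT3, 0.07 within the knockout and 0.76 within the wild type. Hdac3 had r = -0.64 and rho = -0.71 (permutation p = 0.0272 and 0.0134, adjusted 0.545 and 0.397), with -0.41 without those arrays, -0.46 within the knockout and -0.37 within the wild type. Both r kept their sign in each of these subsets and were closer to 0 without WT4 and WT3.

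For the 3 genes lower in the knockout, r over the 12 arrays was positive and the within-group values were mostly negative. Ezh2 had r = 0.36 over 12 arrays, -0.22 within the knockout and -0.63 within the wild type. Hmgb3 had 0.40 over 12 arrays, -0.54 within the knockout and -0.38 within the wild type. For Hmgn1, with 0.54 over 12 arrays, the sign differed between the groups, at -0.65 in the knockout and 0.33 in the wild type. The knockout values lean on KO1, which stood at 9.36 in Mki67 while the other knockout arrays reached 8.63. KO1 was also at or near the bottom of the knockout for Hmgb3 (7.30) and Hmgn1 (12.31). The r within the knockout without KO1 was not computed. The strongest value within a group was that of Kdm5b in the wild type, -0.95, against 0.04 in the knockout. It was picked as the most extreme of all within-group values (exact permutation p = 0.00972, unadjusted). The difference between its slopes, 1.35 (SE 0.80), did not pass (limma adjusted p = 0.839). Dnmt3a had -0.88 in the knockout and 0.18 in the wild type, where its range was small in both groups and KO1, highest in Mki67 among the knockout arrays, was its lowest array.

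**Figure D5:**
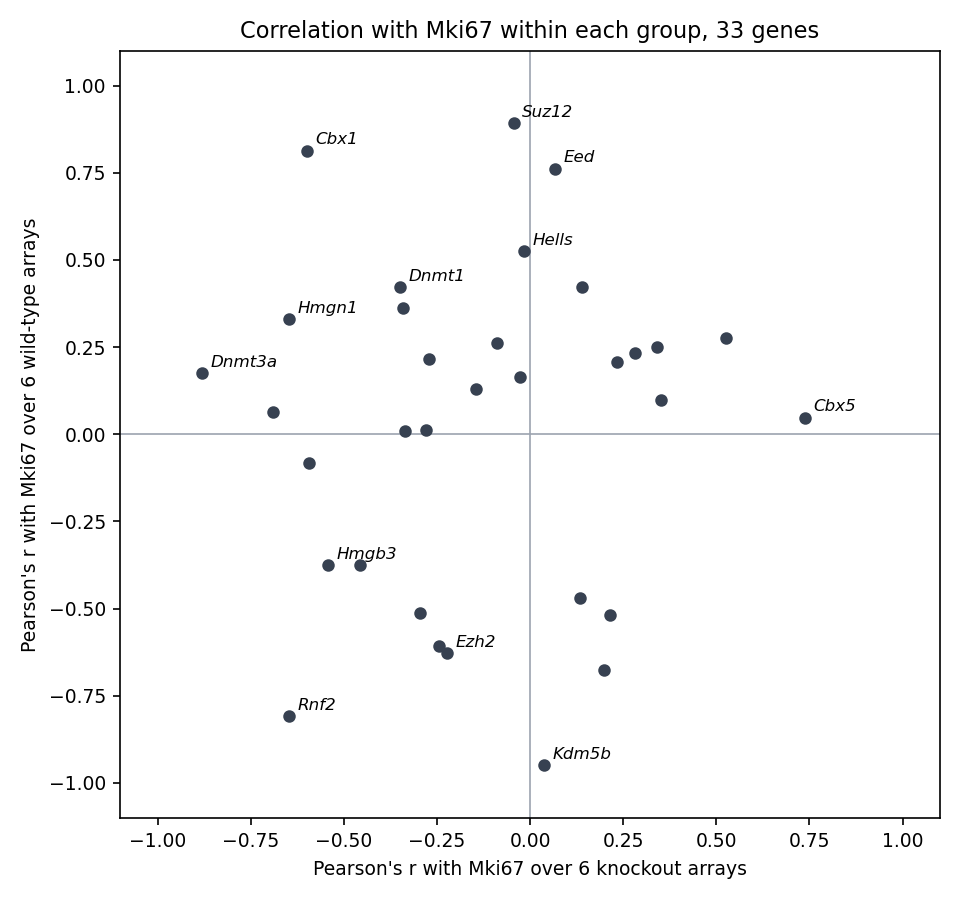
Pearson's r with Mki67 over the 6 knockout arrays (horizontal axis) and over the 6 wild-type arrays (vertical axis) for each of the 33 genes, with 12 named. Points in the upper left and lower right of the plot, 18 of the 33, have opposite signs in the groups, and Suz12 and Eed are high in the wild type with values near 0 in the knockout.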

How the data were processed

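Total RNA of the 12 tumour samples was labelled with biotin and hybridised to Affymetrix mouse arrays, per the labels. The values are the log2 signals that the authors deposited, 22690 probe sets by 12 arrays, made with GCRMA per the submitters' processing notes. Its version, scan dates and detection calls are not given in the sources used here, so no batch was tested. GCRMA compresses changes near background. No normalization was added.

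Probe sets were named from the platform's annotation, updated through a RefSeq gene table (GRCm38.p6): 20393 had 1 symbol (20364 found in the table), 691 several and 1606 were not listed. The 64 control probe sets were left out. Fits used limma 3.58.1 (lmFit, eBayes with trend) in R 4.3.3. Correlations and their permutation tests used numpy 2.4.6, with ranks from scipy 1.17.1, and figures used matplotlib 3.10.9. Single values were compared over all 924 splits of 6 against 6, with a smallest p of 0.00216.

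The members, lists and tests were chosen with earlier results of these data known. All 45 members could be named, beside Mki67 and the list genes past the threshold. Values on every array are given for members past it, for the tested member of largest difference in each role, and for Hmgn3 and Suz12, which were added after their values were seen.

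The fits were tested on simulated data. Other filters, scalings, weights, covariates, probe set summaries, a block on replicate number and leaving out arrays were tried.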

Additional observations from a re-analysis of the deposited data

Results flagged for a closer look

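Each of the 33 tested genes was examined in both groups of 6 arrays for an array whose gap to its nearest neighbour, over the group's range, exceeded Dixon's 95% critical value. Of the 68 groups examined, which included those of Mki67, 3 held such an array, and chance gives about 1 in 20. Dnmt3a was at 3.71 on KO1, where the other knockout arrays lay close together, with a gap of 0.894 of the range. Crebbp was at 5.46 on WT5, above the other wild-type arrays, with a gap of 0.744. Hmgb2 was at 8.80 on WT5, below the other wild-type arrays, with a gap of 0.645. Without these arrays the 3 genes did not pass the threshold either.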

How the results depend on the processing

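Over all genes, 115 were lower and 113 higher. There were 57 and 55 with no filter on dim probe sets, 126 and 68 with each array centred on its median, 191 and 199 with array weights, 25 and 47 with beta-actin as a covariate, 42 and 36 with Mki67 as a covariate, and 65 and 60 with KO4 and KO5 averaged. Of the chromatin genes, 3 were lower, against 1 with no filter (Hmgn1), 0 with beta-actin and 0 with Mki67 as a covariate, and 2 or 3 under the other settings but the block (2 with the epithelial marker mean as a covariate, without Ezh2). With the replicate number as a block there were 41 genes lower, 28 higher and 0 chromatin genes called (adjusted p = 0.0628 for Hmgb3, 0.0822 for Hmgn1 and 0.0665 for Ezh2). The labels do not say whether the numbers pair the arrays, and the values cannot settle it. Same-numbered arrays deviated together by correlations of -0.04 to 0.14. The best match in the wild type had the same number for KO2, KO5 and KO6 and another number for KO1, KO3 and KO4. When arrays were left out in turn, 51 to 122 genes were lower, 44 to 102 higher and 0 to 2 chromatin genes lower. It was 0 without KO6 and without WT4. The cause of these moves was not tested. Limma's adjusted p over all settings ran from 0.0229 to 0.091 for Hmgb3, 0.0119 to 0.418 for Hmgn1 and 0.0328 to 0.195 for Ezh2, and their sign did not change in any. Hmgb3 passed in 20 of 27 settings, Hmgn1 in 11 and Ezh2 in 12, and no other chromatin gene passed in any. Among genes that did not pass, the sign of the change differed from that reported in 61 cases over these genes and settings. For the slope on Mki67, 0 genes passed in every setting tried but that without KO1, where 1 gene passed, with a negative slope and not one of the 33 (0 to 1 over the arrays left out in turn). With the 9 division genes in place of Mki67, 6 of the 33 chromatin genes and 557 of 6824 genes had a positive slope at an unadjusted p under 0.05, with 0 past the threshold. Other Mki67 probe sets were not run, since 1 probe set carries that name alone. The number of arrays limits the precision, and dim genes have only compressed values.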
